A study of Homo sapiens with 15 samples.

Results

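The genes described here encode the proteins of the large (60S) subunit of the cytosolic ribosome. They were chosen by name, as every intron of a gene called RPL with a number and at most one A or L after it, or called RPLP0, RPLP1 or RPLP2. This gave 400 of the 111143 introns in the deposited tables, from 46 of 11713 gene names, and 373 of the 400 were listed for every clone. RPL3L, RPL10L and RPL39L, the tissue-restricted copies, were not listed. The study sequenced polyadenylated RNA from HCT116, a human colon cancer cell line, and set 4 clones deficient in bktRNA1, named KO-1 to KO-4, against wild-type (WT) cells of the line. There were 3 libraries of WT and 3 of each clone, per the design text from independent experiments. Each clone is 1 isolate and there is 1 WT line, so a difference below is that of a clone from this line, and the effect of the deficiency and of clonal origin cannot be told apart in any 1 clone. The level of bktRNA1 itself was not analysed here. The 4 comparisons share their WT libraries.

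Ribosomal proteins are among the most heavily transcribed genes of a growing cell, and their mRNAs are short, abundant and built from several small exons. Many of these mRNAs begin with a C followed by an unbroken run of pyrimidines, the terminal oligopyrimidine (TOP) motif, through which growth signalling tunes their translation. Their introns are also the source of many small nucleolar RNAs (snoRNAs), which are cut out of the removed intron and guide chemical modification of ribosomal RNA.

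The start of the transcript is printed for some of the members that the results turn on, as 15 bases before and 15 bases from the annotated start. The bases are from the RefSeq promoter sequences (GRCh38.p14). They show a feature that many but not all members carry and that the choice by name did not use. The capitals mark the pyrimidine run that begins at the first transcribed base. The windows are chr9:127451392-127451421 (minus strand) for RPL12, chr3:40457324-40457353 (plus) for RPL14, chr19:55385917-55385946 (plus) for RPL28, chr17:74203663-74203692 (plus) for RPL38, chr12:56116618-56116647 (plus) for RPL41, chr15:69452803-69452832 (plus) for RPLP1, chr11:809952-809981 (plus) for RPLP2 and chrX:154398050-154398079 (plus) for RPL10.
RPL12: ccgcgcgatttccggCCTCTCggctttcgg
RPL14: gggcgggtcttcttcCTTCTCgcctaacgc
RPL28: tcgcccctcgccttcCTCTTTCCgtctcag
RPL38: aacggaagtctcgttCTTTTTCgtcctttt
RPL41: cggaacttcgcctttCTCTCggccttagcg
RPLP1: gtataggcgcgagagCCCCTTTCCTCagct
RPLP2: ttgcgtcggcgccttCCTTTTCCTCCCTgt
RPL10: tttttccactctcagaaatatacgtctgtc
A C at the first base followed by at least 4 more bases that are each C or T stood at the annotated start of 25 of the 38 members matched in the RefSeq table (65.8%), against 4.04% of all 27305 promoters. Only the strand that has the sequence of the transcript was read. Such a run began within 10 bases of the start in 33 members (86.8%), against 33.3% of all promoters. RPL10 has no such run at its annotated start, and the other windows printed here do. Among members described below but not printed, RPL3, RPL10A and RPL11 have no run at the annotated start, while RPL22 and RPLP0 have one. Near the start, a run began at -1 in RPL3, 3 in RPL10A, 4 in RPL11 and -7 in RPL10, in bases from the first transcribed base. A single annotated start was read per gene, so these windows do not settle whether a gene's mRNAs carry the motif.

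Each library held 17287797 to 35348260 junction reads over the introns listed for every clone, and the 3 KO-1 libraries were the shallowest. Among the markers of the line, KRT8, KRT18 and KRT19, the keratins of simple epithelia, had mean scaled reads of 64172, 25509 and 22979 per WT library, and EPCAM, an epithelial adhesion protein, 9017. EPCAM fell in KO-1 by 1.06, in KO-2 by 0.99 and in KO-4 by 0.59 on the log2 scale, with all 3 changes past the threshold, and stood at 0.14 in KO-3. KRT19 rose in every clone, by 0.24, 0.50, 0.46 and 0.79. KRT8 and KRT18 rose in KO-3 by 0.53 and 0.60 and did not pass in the other clones. ELF3 fell in KO-1 and KO-2 by 0.37 and 0.41 and did not pass in KO-3 or KO-4. CDX2, at 86 in WT, passed in no clone. These are the 6 of 11 colon epithelium markers that were tested. Of 10 mesenchymal markers, 2 had enough reads to test, FN1 at 640 and COL1A1 at 159 in WT, and both rose in KO-4, by 1.51 and 0.65. FN1 also rose in KO-1 and in KO-2, by 0.41 in each. The balance of reads between the last and the first junction of a gene also moved. The median log2 ratio over 6387 genes was taken in each library and averaged over the 3 libraries of a group. It was 0.30 in WT and KO-1, 0.45 in KO-2 and KO-3 and 0.50 in KO-4. Over 45 large-subunit genes the same measure was smaller but also moved. Its mean was -0.06 for both WT and KO-1, 0.02 for KO-2, 0.03 for KO-3 and 0.04 for KO-4. Every KO-3 library (0.01 to 0.06) and every KO-4 library (0.03 to 0.06) lay above all WT libraries (-0.08 to -0.02). The libraries of KO-1 and KO-2 overlapped those of WT. The part of these differences in the results below was not tested.

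Large-subunit genes took 7.06% ± 0.49 (SD, n = 3) of all spliced reads in WT. A spliced read is one that crosses the joined exons of an intron. The 3 WT libraries held 7.58%, 7.01% and 6.59%. KO-3 held 8.77%, 7.73% and 8.04%, and KO-4 held 5.57%, 5.69% and 5.71%. All 3 KO-3 libraries therefore lay above the highest WT library, and all 3 KO-4 libraries below the lowest. KO-1, at 7.39%, 7.25% and 6.93%, and KO-2, at 7.16%, 7.35% and 7.003%, lay within the WT range. In bulk RNA, a smaller share of cells with the mRNA and less of it per cell cannot be told apart. The 32 genes of the small (40S) subunit took 4.51% ± 0.295 in WT, 5.14% ± 0.275 in KO-3 and 3.66% ± 0.0666 in KO-4 (SD, n = 3 each). The ratio of large-subunit to small-subunit reads lay between 1.54 and 1.61 in all 15 libraries.

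**Figure D1:**
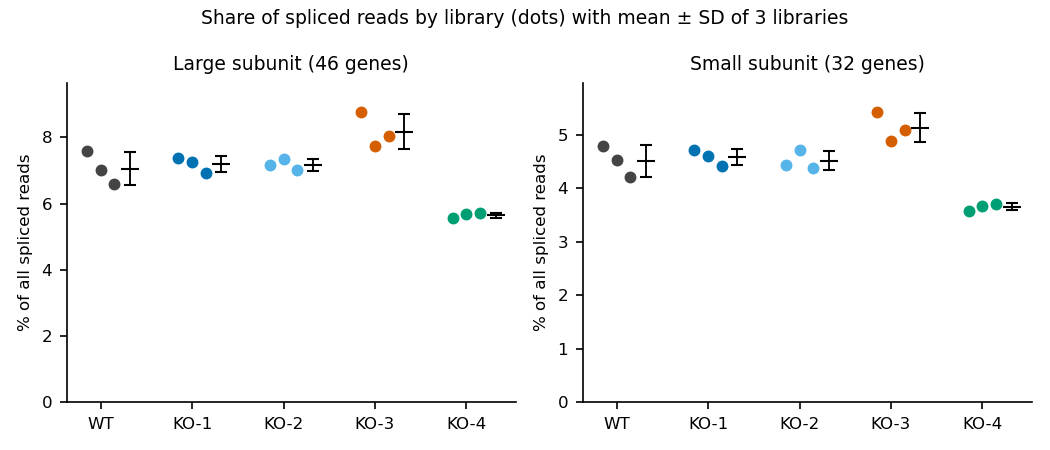
Share of all spliced reads (%, vertical axis from 0) taken by the 46 large-subunit genes (left) and the 32 small-subunit genes (right) in WT and the 4 clones; dots are libraries in the order listed, and bars are the mean ± SD of 3. For the large subunit, the KO-3 libraries reach 7.73% to 8.77%, above all WT libraries, and the KO-4 libraries 5.57% to 5.71%, below all of them.

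Gene by gene, the family moved almost as a block in KO-3 and KO-4. Spliced reads were summed per gene, scaled between libraries by the median ratio over genes, and tested with limma on log2(scaled reads + 1). An adjusted p under 0.05 was the threshold. In KO-3, 43 of 46 members rose and 0 fell, where 15% of the 9471 genes tested rose. In KO-4, 44 fell and 0 rose, where 24.2% of all genes fell. The median log2 change of the members was 0.27 in KO-3, a fold of 1.20, and -0.36 in KO-4, a fold of 0.780. The median over all genes tested was 0.00 in both. Libraries are numbered below in the order in which the tables list them. Left-out libraries moved the KO-3 count to between 28 and 46, with 28 when the third WT library was left out. The KO-4 count stayed between 41 and 44.

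KO-1 and KO-2 showed far fewer changes in the family. In KO-1, 8 members rose (RPL17, RPL28, RPL31, RPL34, RPL36A, RPL38, RPL39 and RPL41) and 1, RPL12, fell, where 13.7% of all genes rose and 12.5% fell. In KO-2, RPL28 and RPL41 rose and 0 fell, where 21.9% of all genes rose and 21.1% fell. The share of members called in KO-2 was thus below that of genes at large. Both counts depended on single libraries: without the first WT library, 14 members passed in KO-1 and 8 in KO-2, and without the third 4 passed in KO-1. Without the first or the second KO-2 library, 1 passed in KO-2. The members' median was 0.07 in KO-1 and 0.03 in KO-2, and ran from 0.00 to 0.13 and from -0.03 to 0.09 when single libraries were left out.

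The libraries themselves show the same order. All 3 KO-3 libraries lay above all 3 WT libraries in 29 members and below in 0, where 20.7% of all genes lay above. In KO-4, 43 members lay wholly below WT and 0 above, where 28.5% of all genes lay below. KO-3 lay wholly above KO-4 in 46 of 46 members, where 29.8% of all genes did. In KO-1, 7 members lay wholly above WT, where 18.4% of all genes did, and in KO-2 1 did, where 26.3% did. All 46 members differed among the 4 clones in limma's F test without WT in the contrast, where 75.3% of all genes did. The 212 main introns, which are the non-overlapping introns that carry most of a gene's spliced reads, each gave a separate junction: their mean level was above WT at 212 of 212 junctions in KO-3 and at 0 of 212 in KO-4, with 139 above in KO-1 and 125 in KO-2. Junctions of 1 gene share their transcripts and are not replicates.

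**Figure D2:**
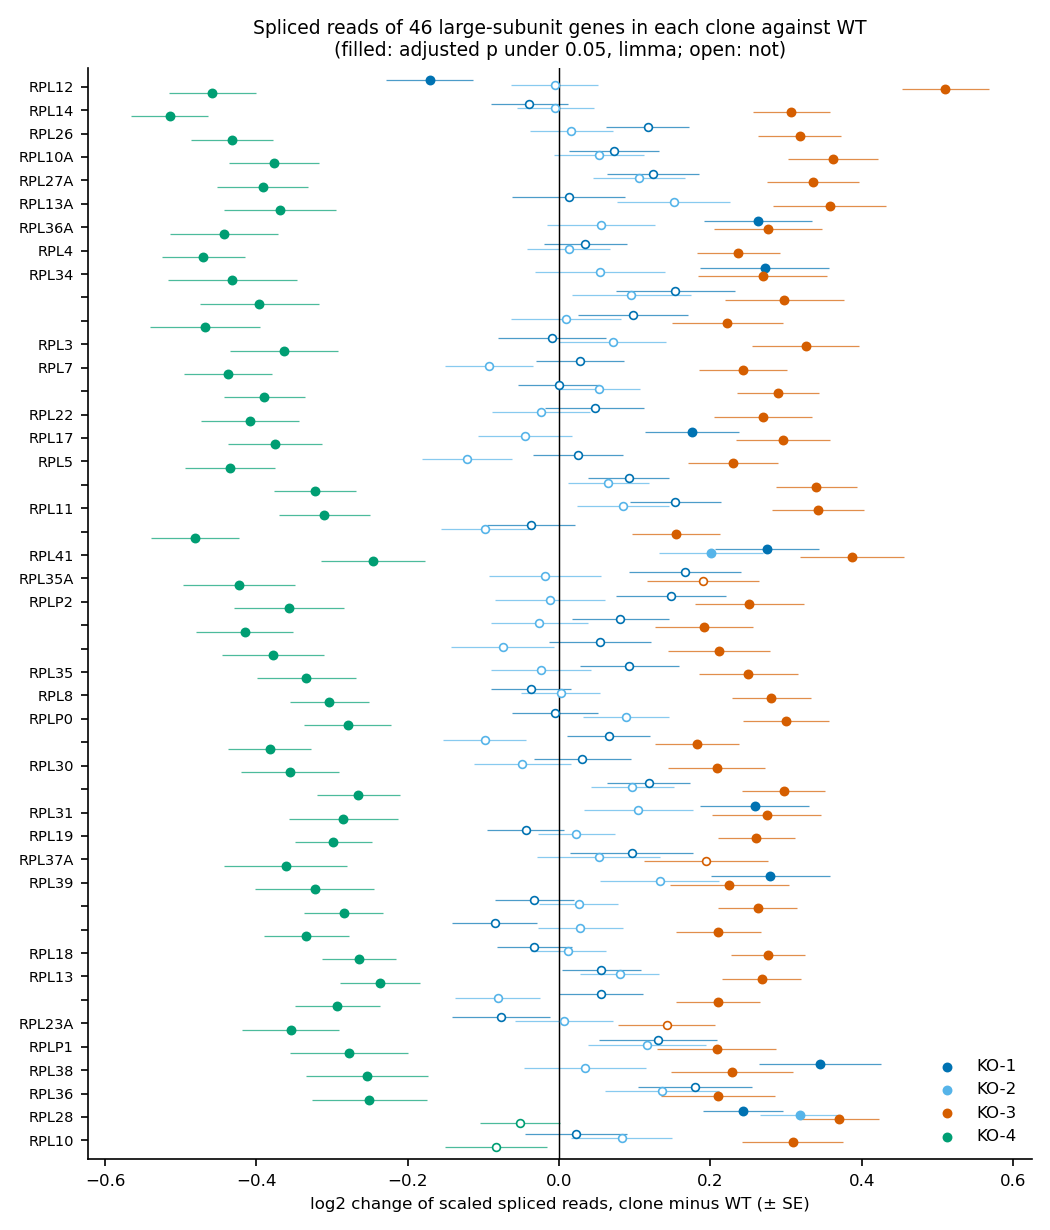
Log2 change of scaled spliced reads (clone minus WT, horizontal axis, ± SE) for each of the 46 large-subunit genes; colours are the 4 clones, filled points have a limma adjusted p under 0.05, genes are ordered by the difference between KO-3 and KO-4, and rows are named for genes described in the text. KO-3 points lie between 0.14 and 0.51 and KO-4 points between -0.51 and -0.05, and no member changes that order.

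The members did not all move by the same amount. In KO-3 the changes ran from 0.14 in RPL23A, a protein at the exit of the peptide tunnel, to 0.51 in RPL12, with quartiles of 0.21 and 0.31. In KO-4 they ran from -0.51 in RPL14 to -0.05 in RPL28. The members that did not pass were RPL23A, RPL35A and RPL37A in KO-3, and RPL10 and RPL28 in KO-4. In KO-3 RPL23A, RPL35A and RPL37A stood at 0.14, 0.19 and 0.19.

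The acidic stalk is the flexible arm of the subunit that recruits the elongation factors. It is built from RPLP0, its anchor, from RPLP1 and RPLP2, which bind the anchor in pairs, and from RPL12 at its base. All 4 rose in KO-3 and all 4 fell in KO-4, with medians of 0.28 and -0.32. RPL12 moved the most in the family toward higher values. Its scaled spliced reads were 57011, 53893 and 48749 in WT, and 81442, 71134 and 74753 in KO-3. They were 37313, 38608 and 40090 in KO-4. The KO-3 libraries all lay above WT and the KO-4 libraries all below, with log2 changes of 0.51 ± 0.058 (SE, limma adjusted p = 8.2e-07) and -0.46 ± 0.058 (adjusted p = 9.6e-07). RPL12 was also the single member called lower in KO-1, where its libraries held 49588, 47497 and 44547, a range that meets that of WT. That change, -0.17 (limma adjusted p = 0.032), missed the threshold without the first WT library (adjusted p = 0.16) or the second (0.092), or the second KO-1 library (0.069) or the third (0.15). As a share of all large-subunit reads, RPL12 took 3.12% in WT, 2.69% in KO-1 and 3.66% in KO-3.

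RPLP0 held 120956, 114663 and 104992 scaled reads in WT, 151294, 133253 and 134846 in KO-3 and 90695, 92593 and 97001 in KO-4. Its KO-3 and KO-4 libraries did not overlap those of WT, and its changes were 0.30 (limma adjusted p = 0.00042) and -0.28 (adjusted p = 0.00034). For RPLP1 the WT libraries held 35329, 34674 and 29442 and the KO-3 libraries 42179, 34270 and 38486. These ranges overlap, and the KO-3 change of 0.21 ± 0.078 (SE, limma adjusted p = 0.047) was lost without the third WT library (adjusted p = 0.26) or the first KO-3 library (0.22) or the third (0.10). Scaled to total spliced reads it was 0.14 (adjusted p = 0.15). RPLP2, at 26583, 25110 and 21802 in WT and 31997, 26445 and 29031 in KO-3, likewise overlapped by 1 library. Its KO-3 call (0.25, limma adjusted p = 0.011) was lost without the third WT library (adjusted p = 0.087) or without the first KO-3 library (adjusted p = 0.071). Both fell in KO-4, RPLP1 by 0.28 and RPLP2 by 0.36.

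RPL5 and RPL11 form, with 5S ribosomal RNA, the particle that is built into the subunit and that binds the p53 regulator MDM2 when assembly is disturbed. RPL5 held 46474, 42926 and 40372 scaled reads in WT, 56812, 47099 and 48532 in KO-3 and 31872, 31865 and 32083 in KO-4. RPL11 held 26901, 24335 and 22008 in WT, 33513, 29292 and 29896 in KO-3 and 19750, 19513 and 19612 in KO-4. For both genes every KO-3 library was above and every KO-4 library below WT. RPL5 rose by 0.23 in KO-3 (limma adjusted p = 0.0056) and fell by 0.44 in KO-4 (adjusted p = 2.9e-06), and RPL11 rose by 0.34 and fell by 0.31. Neither passed in KO-1 or KO-2, where RPL5 stood at 0.02 and -0.12 and RPL11 at 0.15 and 0.08. Of 18 p53 target genes with enough reads, 5 rose and 1 fell in KO-1, where 13.7% and 12.5% of all genes did. In KO-2 these counts were 8 and 2, against 21.9% and 21.1%. For KO-3 they were 6 and 1, against 15% and 15.6%, and for KO-4 2 and 9, against 24.5% and 24.2%. Single targets differed: CDKN1A, the cell-cycle inhibitor, stood at 0.75, 1.01, 0.19 and -0.14 in KO-1 to KO-4. BAX stood at -0.35, -0.93, 0.19 and -0.04, and MDM2, itself a target, at 0.05, -0.22, -0.39 and -0.67.

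RPL3, RPL8, RPL10 and RPL10A lie around the catalytic centre and the tRNA sites. All 4 rose in KO-3, and all but RPL10 fell in KO-4. RPL3 held 93784, 81636 and 76200 scaled reads in WT, 120414, 95855 and 99517 in KO-3 and 63551, 65584 and 65708 in KO-4. RPL10A held 40184, 35815 and 33242 in WT, 50791, 44321 and 45100 in KO-3 and 28044, 28173 and 27691 in KO-4. In both, WT lay between the clones with no overlap. RPL10, which is added late in assembly and is taken up here after its values were seen, held 48856, 44669 and 41074 in WT and 42597, 40930 and 43274 in KO-4. These ranges overlap, with a change of -0.08 ± 0.067 (SE, limma adjusted p = 0.32). Since the rest of the family was lower in KO-4, RPL10 made up 3.15% ± 0.097 of large-subunit reads there, against 2.63% ± 0.011 in WT (SD, n = 3 each).

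RPL3, RPL10A and RPL12 are known to make alternatively spliced forms that are degraded, through which the proteins limit their own mRNAs. All 3 rose in KO-3 and fell in KO-4, with medians of 0.36 and -0.38, beside 0.27 and -0.36 for the family. Of the 7 proteins at the peptide exit (RPL17, RPL19, RPL23A, RPL26, RPL31, RPL35 and RPL39), 6 rose in KO-3, 7 fell in KO-4 and 3 rose in KO-1.

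RPL14 fell the most in KO-4. It held 30466, 30557 and 28477 scaled reads in WT and 20673, 21015 and 20925 in KO-4, a change of -0.51 ± 0.051 (SE, limma adjusted p = 2.7e-08) with no overlap. It held 39693, 34471 and 36700 in KO-3, all above WT. RPL22, a surface protein that also has a closely related copy, RPL22L1, held 13543, 12888 and 11736 in WT, 17105, 14072 and 14898 in KO-3 and 9125, 9880 and 9720 in KO-4. It rose by 0.27 in KO-3 and fell by 0.41 in KO-4. RPL22L1, which lies outside the name rule, stood at 0.12 in KO-3, below the threshold, and fell by 0.70 in KO-4.

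RPL28 was higher in 3 clones and did not pass in KO-4. It held 25138, 24052 and 23899 scaled reads in WT, 28352, 30506 and 27701 in KO-1, and 29306, 31069 and 30746 in KO-2. It held 33460, 28584 and 32637 in KO-3 and 23656, 23551 and 23289 in KO-4. The libraries of KO-1, KO-2 and KO-3 all lay above WT, with changes of 0.24 (limma adjusted p = 0.0015), 0.32 (adjusted p = 4.3e-05) and 0.37 (adjusted p = 1.8e-05), each ± 0.053 (SE). KO-4 lay just below WT without overlap, and its change of -0.05 missed the threshold (limma adjusted p = 0.44). RPL28 took 1.43% of large-subunit reads in WT and 1.64%, 1.74%, 1.52% and 1.75% in the clones in order. It is also the 1 member with 0 pseudogenes, processed or unprocessed, named after it in GENCODE 29. The family has 722 of these types and RPL23A the most, 91. How reads that fit both a gene and a pseudogene were counted is not given in the sources used here, and the part of pseudogenes in these values was not tested.

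RPL38 and RPL41 encode very small proteins. RPL38 held 17710, 16180 and 14645 scaled reads in WT and 22016, 21295 and 18336 in KO-1, where its rise of 0.34 ± 0.081 (SE, limma adjusted p = 0.0027) was the largest of the family and the libraries did not overlap. Its KO-3 change of 0.23 (limma adjusted p = 0.035) was lost without the first KO-3 library (adjusted p = 0.24) or the third (0.054), or the second WT library (0.071) or the third (0.18). Scaled to total spliced reads it was 0.16 (adjusted p = 0.11). Its KO-4 change of -0.25 was lost without the first WT library (adjusted p = 0.081) or the third KO-4 library (adjusted p = 0.066). RPL41, named after its values were seen, held 11918, 10529 and 9175 in WT. It held 13260, 12774 and 12027 in KO-1, 12365, 12255 and 11536 in KO-2, 14651, 13033 and 13486 in KO-3 and 8445, 9306 and 8775 in KO-4. It was the 1 member to pass in all 4 clones, rising by 0.27, 0.20 and 0.39 and falling by 0.25 in KO-4. Only the KO-1 and KO-3 libraries lay wholly above WT, and those of KO-2 and KO-4 overlapped it.

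**Figure D3:**
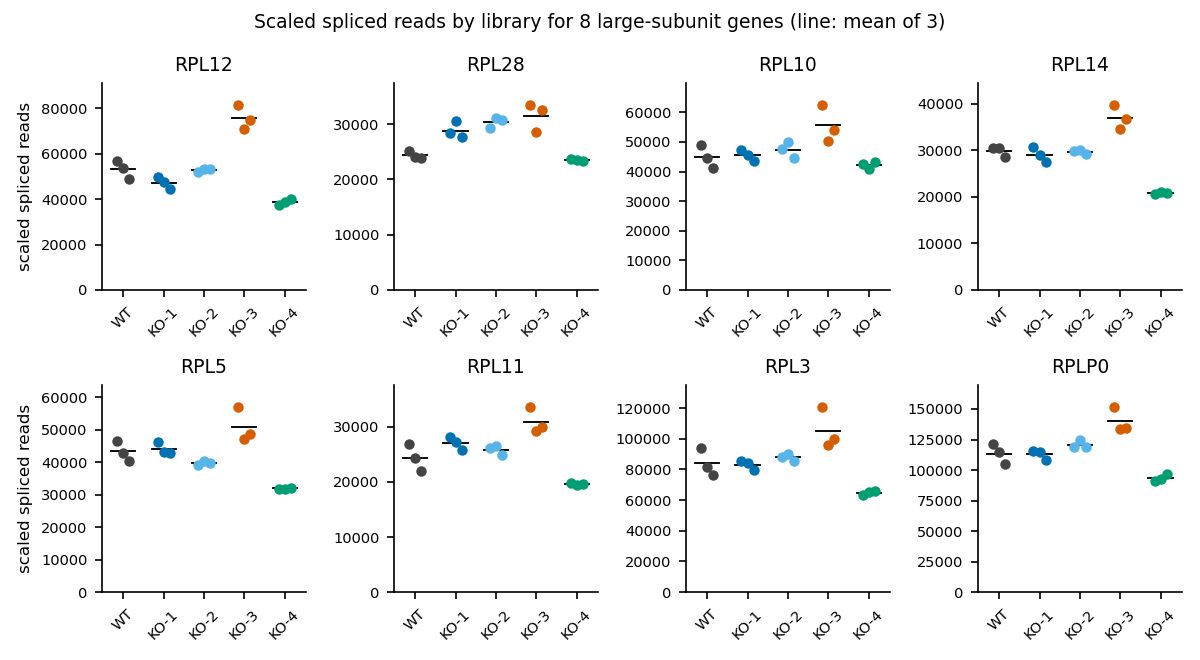
Scaled spliced reads (each vertical axis from 0) of 8 large-subunit genes in the 3 libraries of WT and of each clone; lines are means of 3. RPL12 climbs to 71134 or more in every KO-3 library, RPL28 lies at 23289 to 23656 in KO-4, just below WT, and the KO-4 libraries of RPL10 overlap WT.

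Levels between genes were compared per main junction, since genes differ in how many junctions they have. In WT the most heavily spliced was RPL7, at 17980 ± 1381 scaled reads per junction (SD, n = 3), then RPL13A at 17566 ± 2286 and RPLP0 at 16120 ± 1138, whose spreads overlap, and then RPL13 at 14293 ± 1331 and RPL8 at 12106 ± 776. At the bottom were RPL38 at 3991 ± 381, RPL35A at 3596 ± 473, RPL41 at 3495 ± 456, RPL36A at 3315 ± 364 and RPL34 at 2481 ± 291. Neighbours in this order from RPL35A to RPL36A do not differ beyond their SD, while RPL34 lies lower than RPL36A by more than either SD.

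The level of the genes with a snoRNA inside a main intron is given beside that of the others. Of these 19 hosts, 18 rose in KO-3 and 18 fell in KO-4, with medians of 0.26 and -0.36. Of the 27 other members, 25 rose in KO-3 and 26 fell in KO-4, with medians of 0.27 and -0.33.

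Related gene lists were counted in the same fit. Of the 32 small-subunit genes, 28 rose in KO-3 and 31 fell in KO-4, with medians of 0.26 and -0.36. Of 16 further mRNAs known to start with a TOP motif, mostly translation factors, 10 rose and 0 fell in KO-3, and 0 rose and 11 fell in KO-4, with medians of 0.16 and -0.20. Among them EEF1A1, the factor that brings tRNA to the ribosome, stood at 0.25 and -0.15, and RACK1, a small-subunit scaffold, at 0.30 and -0.20. Of 23 genes of 60S assembly tested, 2 rose and 2 fell in KO-3 with a median of -0.07, and 19 fell in KO-4 with a median of -0.34. In KO-1 7 of them fell and 0 rose, and in KO-2 13 fell and 0 rose. DDX18, an assembly helicase, fell in every clone, by 0.38, 0.63, 0.25 and 0.68.

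Retention, the second measure, is the share of an intron's reads that run across the exon-intron boundary, after division by the length of each form. The 212 main introns of the family were almost fully spliced in WT: their median retention was 0.280%, with quartiles of 0.133% and 0.603%, 180 were under 1%, and the highest reached 27.8%. The other 188 listed introns overlap a main one or hold under 10% of the WT spliced reads of the gene's largest junction. They had a median of 90.7%, with 153 above 50%. For those that overlap a main one, a high value can count reads of the exons that the usual form keeps. The main introns held 99.5% of the members' spliced reads. The 39 main introns with a snoRNA had a median of 0.304% and the 173 without one 0.275%. By group, the members' main introns had a median of 0.277% in WT, and 0.292%, 0.289%, 0.253% and 0.319% in the clones in order, over the introns read in all groups.

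**Figure D4:**
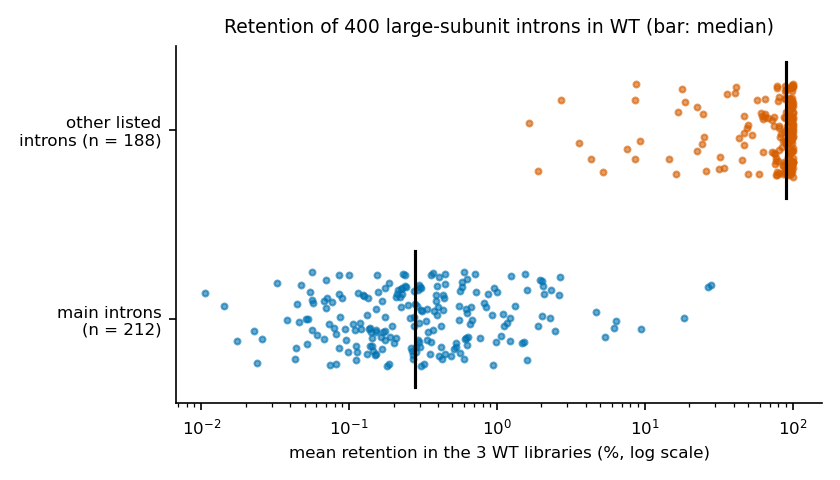
Mean retention in the 3 WT libraries (%, horizontal log axis) of each of the 400 large-subunit introns, split into 212 main introns and 188 others; vertical bars are medians. The main introns centre on 0.280% and the others on 90.7%.

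Few introns of the family changed. In a quasi-binomial test of retained against spliced reads, adjusted over all introns with a mean of at least 10 reads of each kind, 6 member introns rose and 2 fell in KO-1 of 248 tested, where 1.29% of all introns rose and 0.175% fell. In KO-2 it was 7 and 2 of 267, against 1.3% and 0.304%. In KO-3 it was 1 and 2 of 265, against 0.558% and 0.155%, and in KO-4 3 and 1 of 250, against 1.54% and 0.429%. The median log2 odds change of the members was 0.11, 0.06, -0.08 and 0.15 in KO-1 to KO-4, beside 0.13, 0.10, 0.02 and 0.17 over all introns tested. Member introns are read far more deeply, with a median of 4585 to 5777 spliced reads against 124 to 142 for all introns tested, so smaller changes can pass in them than in most other introns.

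The libraries were also compared by overlap. Of the member introns tested, 35 lay wholly above WT in KO-1 and 16 wholly below, where 11.2% and 4.43% of all introns did. In KO-2 these counts were 27 and 12, against 10.4% and 5.56%. In KO-3 they were 10 and 33, against 7.2% and 5.75%, and in KO-4 38 and 18, against 13.1% and 4.47%. The members' share wholly below WT was thus largest in KO-3, the clone in which their spliced reads were highest. Spliced reads enter the retention level, so it is not independent of them. The trait was not particular to the large subunit: of 173 small-subunit introns tested in KO-3, 32 lay wholly below WT and 5 wholly above.

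These calls depend on the test. With limma on the log2 odds, 0 member introns passed in each clone. That test does not weight introns by depth and draws each intron's spread toward a trend over all introns. For the RPLP0 intron in KO-1 its SE was 0.26, against 0.05 in the quasi-binomial test. At an unadjusted p under 0.05 limma gave 24, 10, 8 and 14, where 9.82%, 10.1%, 7.35% and 11.3% of all introns reached that level. The quasi-binomial test gave 39, 35, 32 and 50 at that unadjusted level. The authors' deposited table calls 5, 3, 4 and 6 member introns at an FDR under 0.05. These calls were only partly the same: of the 24 quasi-binomial calls over the 4 clones, 8 also passed at that FDR and 16 did not. Leaving out the third WT library raised the counts to 14, 14, 5 and 13 in the order of the clones. Leaving out the first WT library gave 5 in KO-1, and leaving out 1 of its own libraries gave 3, 3 or 4. Without the first or the second KO-4 library, 2 or 1 passed in KO-4.

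The 14 introns past the threshold in at least 1 clone came from 13 genes: 6 passed in 1 clone, 6 in 2, 2 in 3 and 0 in 4. Of the 14, 13 overlapped an annotated exon by at least 1 base (92.9%, against 63.4% of the 273 tested). This overlap counted exons of either strand and any gene, but not those of snoRNAs or of transcripts annotated as retained introns. Of the same 14, 5 held a snoRNA (35.7% against 17.9%) and 7 were the first intron of their transcript (50% against 35.5%). The splice sites of those the results turn on are printed as 5 exon bases and 15 intron bases at the start, then 25 intron bases and 5 exon bases at the end, from GENCODE 29 transcripts on hg38. Capitals mark the first and last 2 bases of the intron. Where transcripts cover the ends of the 273 introns tested, all 217 starts read were GT and all 204 ends read were AG.
RPLP0 start: ggaagGTtcgtgtgctagtt
RPLP0 end: gcctgagctccctgtctctcctcAGtgaca
RPL12 start: agtcgGTgcgtgctctggtt
RPL12 end: gacactaactcttcttttcccccAGtatac
RPL13 start: aggagGTgagggagactggg
RPL13 end: tcactcgctcccctctcgtccgcAGccgca
RPL36 start: agcagGTaagtggtttcccg
RPL36 end: cccttctccccgtcgctgtccgcAGccatg
RPL41 start: ccaagGTgagcggttcctgg
RPL41 end: tctgctgcttgtgatcggttgctAGtggag
RPL10 start: gacagGTgagcttggtctgg
RPL10 end: ctcagttctttccattgctccttAGatcca
RPL4 with SNORD16, start: gaaacGTatcctttgtttca
RPL4 with SNORD16, end: atgtgattcttgactggaaaaatAGatgtg
RPL4 with SNORD18C, start: ccctgGTaattaaactgctt
RPL4 with SNORD18C, end: cctaatttttctttccctttaaaAGgaatt

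The first intron of RPLP0 (chr12:120200832-120201082, minus strand, 251 bases) was the most retained main intron of the family, at 26.4%, 27.9% and 29.2% in WT. It held 30.2%, 30.6% and 31.6% in KO-1, 24.7%, 24.8% and 23.7% in KO-2, 25.8%, 23.3% and 25.05% in KO-3 and 28.5%, 27.0% and 31.0% in KO-4. KO-1 lay wholly above WT, KO-2 and KO-3 wholly below, and KO-4 overlapped it. The log2 odds changes were 0.21 ± 0.05 in KO-1 (adjusted p = 0.021, quasi-binomial with limma's moderated dispersion), -0.25 ± 0.05 in KO-2 (adjusted p = 0.00018) and -0.22 ± 0.05 in KO-3 (adjusted p = 0.0092). The KO-1 call was lost when the changes were centred on the median intron, without the first WT library (adjusted p = 0.19) or without any 1 of the KO-1 libraries (0.068, 0.14 and 0.18), and centring moved its change to 0.08. The KO-3 call was lost without the second WT or the second KO-3 library (0.090 and 0.29). An annotated exon overlaps this intron, counted as above, so its boundary reads may include other transcript forms.

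An intron of RPL36 (chr19:5690328-5690505, plus strand, 178 bases) was retained at 4.24%, 4.65% and 5.17% in WT. It held 5.94%, 6.12% and 5.17% in KO-1, 5.84%, 5.79% and 6.13% in KO-2, 4.34%, 5.97% and 5.17% in KO-3 and 5.87%, 6.36% and 6.16% in KO-4. KO-2 and KO-4 lay wholly above WT, and the lowest KO-1 library was level with the highest of WT at this precision. The log2 odds rose by 0.33, 0.37 and 0.42 in KO-1, KO-2 and KO-4, with quasi-binomial adjusted p of 0.035, 0.0038 and 0.00092 (dispersion moderated with limma). The KO-1 call was lost without the first WT library (0.24) or the second (0.055) or the first KO-1 library (0.27) or the second (0.42), and the KO-2 call without the first WT library (0.10). Centred on the median intron, none of the 3 calls remained (0.42, 0.073 and 0.13), and the KO-1 change became 0.21.

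RPL4, a protein whose long loop lines the peptide tunnel, had 2 changed introns, and each carries a box C/D snoRNA, the class that guides 2′-O-methylation of ribosomal RNA. SNORD16 lies at chr15:66502812-66502910 (minus strand) and SNORD18C at chr15:66501250-66501318 (minus strand), and both are shown with the letters TGATG and CTGA in capitals, where the C and D boxes of this class are found.
SNORD16: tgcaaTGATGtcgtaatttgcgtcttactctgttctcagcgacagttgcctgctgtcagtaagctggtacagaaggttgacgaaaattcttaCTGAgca
SNORD18C: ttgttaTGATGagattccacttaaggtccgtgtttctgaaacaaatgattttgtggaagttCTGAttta
The intron with SNORD16 (chr15:66502751-66503057, minus strand, 307 bases) ends 61 bases after the snoRNA and overlaps no annotated exon, counted as above. Its retention was 0.566%, 0.498% and 0.472% in WT, 1.03%, 0.954% and 0.932% in KO-1 and 0.802%, 0.844% and 0.730% in KO-2. It was 0.654%, 0.688% and 0.758% in KO-3 and 0.590%, 0.699% and 0.540% in KO-4. The libraries of KO-1, KO-2 and KO-3 all lay above WT, and those of KO-4 overlapped it. The log2 odds rose by 0.93 ± 0.13 in KO-1 (quasi-binomial adjusted p = 5.8e-07, dispersion moderated with limma) and by 0.63 ± 0.13 in KO-2 (adjusted p = 0.0017). The FDR of this intron is 1 in each of the 4 comparisons of the authors' deposited table.

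The RPL4 intron with SNORD18C (chr15:66501106-66501374, minus strand, 269 bases) was retained at 2.07%, 2.05% and 2.06% in WT. It was 2.34%, 2.24% and 2.55% in KO-1, 2.79%, 3.12% and 2.55% in KO-2, 2.21%, 2.46% and 2.51% in KO-3 and 2.85%, 2.92% and 2.53% in KO-4. All 12 clone libraries lay higher than the 3 of WT. The change passed in KO-2 (log2 odds 0.46, quasi-binomial adjusted p = 0.0026, dispersion moderated with limma) and KO-4 (0.44, adjusted p = 0.0099). The KO-2 call was lost without the second KO-2 library (0.096), and the KO-4 call without the first KO-4 library (0.094) or the second (0.12). Centred on the median intron, the KO-4 change was 0.27 (0.25) and was not called.

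RPL10 hosts SNORA70, of the box H/ACA class that guides pseudouridylation, at chrX:154400281-154400415 (plus strand). The capitals mark the ACA 3 bases from its end.
SNORA70: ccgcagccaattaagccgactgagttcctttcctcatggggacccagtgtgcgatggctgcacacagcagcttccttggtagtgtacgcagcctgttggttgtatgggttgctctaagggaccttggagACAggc
The main form of this intron ends at 154400463, 48 bases after the snoRNA, and was retained at 2.67% in WT. A longer form that skips the next exon (chrX:154399942-154400701, plus strand, 760 bases) was the one that changed. Its retention was 63.0%, 57.1% and 67.9% in WT, 72.9%, 76.3% and 74.0% in KO-2 and 76.1%, 77.3% and 68.6% in KO-4, both wholly above WT. KO-1 stood at 63.5%, 66.2% and 63.5%, and KO-3 at 58.3%, 57.6% and 57.4%, both within the WT range. The log2 odds rose by 0.83 ± 0.19 in KO-2 (quasi-binomial adjusted p = 0.0040, dispersion moderated with limma) and 0.81 ± 0.18 in KO-4 (adjusted p = 0.0032). The authors' deposited table gives an FDR of 0.00539 and 0.0111 for these 2 comparisons. The KO-2 call was lost without the second WT or the second KO-2 library (0.13 and 0.053), and the KO-4 call without the second WT library (0.10) or the first KO-4 library (0.060) or the second (0.085).

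The first introns of RPL14, RPL13 and RPL12 also passed. That of RPL14 (chr3:40457364-40457889, plus strand, 526 bases) was retained at 1.07%, 0.854% and 0.620% in WT, 1.90%, 1.75% and 1.72% in KO-1, 1.98%, 2.04% and 2.07% in KO-2, 1.18%, 1.53% and 1.06% in KO-3 and 1.63%, 1.04% and 1.40% in KO-4. The log2 odds rose by 1.08 ± 0.26 in KO-1 (quasi-binomial adjusted p = 0.013, dispersion moderated with limma) and by 1.27 ± 0.23 in KO-2 (adjusted p = 0.00012), with no overlap with WT in either. The authors' deposited table gives FDR values of 0.00802 and 1.24e-06. In the quasi-binomial test the KO-1 call missed the threshold without any 1 of the KO-1 libraries (0.16, 0.12 and 0.050).

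The intron of RPL13 (chr16:89560713-89560939, plus strand, 227 bases) was retained at 2.31%, 2.76% and 2.85% in WT and 3.42%, 3.24% and 3.49% in KO-2, a rise of 0.37 ± 0.06 in log2 odds (quasi-binomial adjusted p = 5.1e-05, dispersion moderated with limma). Its KO-3 and KO-4 libraries, from 1.99% to 2.60%, overlapped WT. The intron of RPL12 (chr9:127450805-127451280, minus strand, 476 bases) fell in KO-3, from 1.19%, 1.35% and 1.15% in WT to 0.705%, 0.973% and 0.880%. Its log2 odds fell by 0.55 ± 0.09 (quasi-binomial adjusted p = 9.9e-05, dispersion moderated with limma), in the clone where RPL12 had its largest rise in spliced reads. Spliced reads enter both measures. RPL12 stood at 1.48%, 1.29% and 1.33% in KO-1, 1.61%, 1.32% and 1.25% in KO-2 and 1.30%, 1.43% and 1.31% in KO-4, all of which overlapped WT.

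RPL41 (chr12:56116800-56117188, plus strand, 389 bases) showed lower retention, at 9.05%, 8.48% and 10.6% in WT, 6.80%, 6.43% and 6.66% in KO-1 and 7.81%, 8.01% and 6.46% in KO-2. Both clones lay wholly below WT, while KO-3 at 8.95%, 8.40% and 8.08% and KO-4 at 9.17%, 7.95% and 8.60% overlapped it. The log2 odds fell by 0.52 ± 0.08 in KO-1 (quasi-binomial adjusted p = 5.4e-06, dispersion moderated with limma) and by 0.35 ± 0.08 in KO-2 (adjusted p = 0.0033). The KO-2 call was lost without the third KO-2 library (0.12).

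On chromosome 8, an intron of RPL30 (chr8:98045400-98045507, minus strand) rose from 1.40%, 1.51% and 1.66% in WT to 2.15%, 2.77% and 2.31% in KO-3, by 0.67 ± 0.10 in log2 odds (quasi-binomial adjusted p = 3.8e-06, dispersion moderated with limma). An intron of RPL8 (chr8:144792141-144792244, minus strand) fell from 17.5%, 17.6% and 15.2% in WT to 13.3%, 8.08% and 11.96% in KO-4, by 0.72 ± 0.14 (adjusted p = 0.00071). Neither overlapped WT in that clone. The RPL8 call was lost without the second KO-4 library (0.12). RPL30 was also called in KO-1, at 1.80%, 2.08% and 2.08% (0.39, adjusted p = 0.047), a call lost without any 1 of the KO-1 libraries or without the first or the second WT library, and when centred on the median intron (0.37). A form of an RPL18 intron (chr19:48617416-48617790, minus strand) that belongs to a transcript annotated for decay was retained at 57.7%, 60% and 58.8% in WT and 34.0%, 17.6% and 23.5% in KO-1, on 14 to 22 spliced reads a WT library and 31 to 54 a KO-1 library. Without the second KO-1 library it missed the threshold (0.078).

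**Figure D5:**
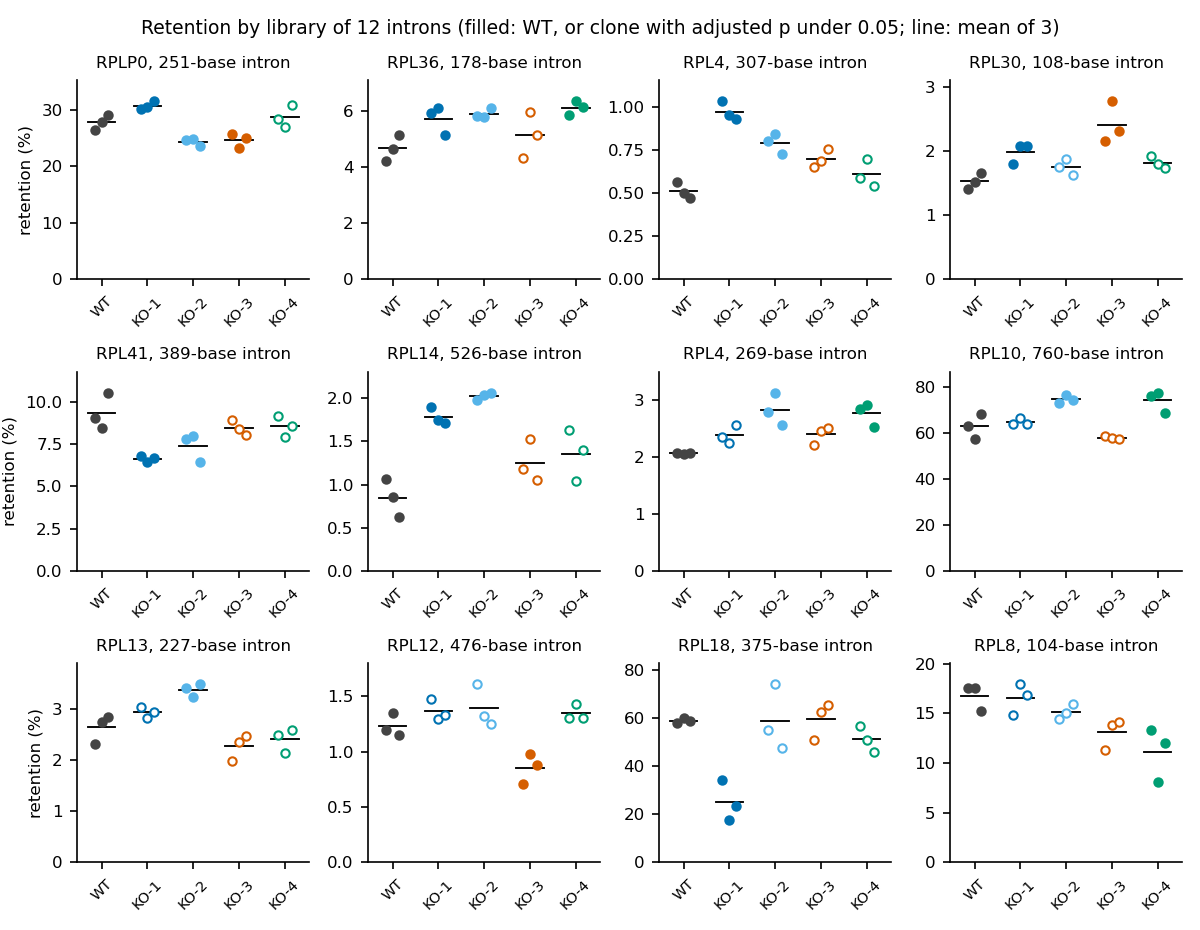
Retention (%, each vertical axis from 0) of 12 large-subunit introns in the 3 libraries of WT and of each clone; filled clone points passed the quasi-binomial test (adjusted p under 0.05), open ones did not, and lines are means of 3. The RPL4 307-base intron is highest in KO-1 (0.932% to 1.03%), and the RPL12 intron is lower in KO-3 alone (0.705% to 0.973%).

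The other 2 of the 14 introns lie outside the naming rule and were taken up after their values were seen. An intron of RPL17 (chr18:49491585-49492457, minus strand), whose reads are shared with the readthrough gene RPL17-C18orf32, rose from 18.4%, 17.7% and 19.4% to 21.8%, 21.3% and 22.4% in KO-1, and missed the threshold without the first KO-1 library (0.059) or the third (0.063) or when centred on the median intron (0.29), where its log2 odds change went from 0.31 to 0.18. An alternative intron of RPL27A (chr11:8684082-8684822, plus strand) went from 99.1%, 98.6% and 99.0% to 99.3%, 99.2% and 99.5% in KO-2, and missed it without the second WT library (0.50) or the first KO-2 library (0.074) or the third (0.17), and when centred on the median intron (0.068) or tested with at least 50 reads of each kind (0.053).

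The extremes of retention were read among introns that overlap no annotated exon, counted as above. Of the 5 such introns that were most retained in WT, none passed in any clone where it was tested: a short form in RPL4 (88.0% ± 3.05), and introns of RPL35 (80.9% ± 5.45), RPL36A (72.9% ± 11.5, tested in KO-2 alone), RPL3 (50.004% ± 2.54) and RPL27A (49.96% ± 3.98; SD, n = 3 each). Nor did any of the 5 least retained, among them introns of RPL7, RPL3 and RPL19, all between 0.038% and 0.047% in WT.

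Retention was also compared among the clones, without WT. In the quasi-binomial F test among the 4 clones, 46 of the 243 member introns tested in all comparisons passed (18.9%), where 7.06% of all introns did, and 22 passed at an adjusted p under 0.01. The greater depth of the member introns, given above, stands beside this share, and its part in it was not tested.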

How the data were processed

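Each of the 4 deposited tables sets a clone against WT, and its cells list 3 libraries for an intron. They hold, per the file headers, raw counts of retained and spliced junction reads, the lengths of both forms, inclusion levels as fractions, a difference of levels (a score), and p-values with an FDR. The submitters' processing notes name cutadapt 2.0, STAR 2.7.1a and hg38. Which program counted junctions, how the authors tested them and which filter they set is not given in the sources used here. Every listed intron has at least 20 junction reads in each library, so introns with few reads were not analysed here. The WT reads of shared introns were identical in the 4 tables, and replicate libraries differed beyond sampling noise.

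Retention was tested with a quasi-binomial model per intron (retained and spliced reads each averaging 10 or more), with a dispersion moderated by limma 3.58.1 in R 4.3.3 and floored at 1. Spliced reads were summed per gene over the 83066 introns listed for every clone (mean of at least 50 reads), scaled by median ratios, and tested with limma with a trend on log2(scaled reads + 1) over 15 libraries. It was used in place of the planned negative-binomial count test, which was not run. Both tests were two-sided with Benjamini-Hochberg adjustment over all features at 0.05, and both were tested on simulated data. The 3 libraries of a group come from independent experiments, and the p-values measure the spread between them. Tables were joined in Python 3.11.15 with pandas 2.3.3 and numpy 2.4.6, and figures drawn with matplotlib 3.10.9.

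The members and lists were chosen with earlier results of these data known. Introns named are up to 12 past the threshold, ordered by clones passed and then adjusted p. The 5 most and 5 least retained among those that overlap no annotated exon, counted as above, are also named. Genes past the threshold in several clones with the same direction in all clones were to be named, and no member met this. Genes named by rule are the largest rise and fall of each clone, and RPL3, RPL5, RPL10A, RPL11, RPL12, RPL22, RPLP0, RPLP1 and RPLP2 always. Main introns, chosen after seeing the data, are non-overlapping introns taken in order of WT spliced reads with at least 10% of the gene's largest. Of the listed introns, 99.7% were found in GENCODE 29. Alternatives were other scalings, filters, thresholds and tests, and each library left out in turn. Some items are not reported here.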

Additional observations from a re-analysis of the deposited data

Results flagged for a closer look

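The results below differed among the 4 clones in a test without WT, with Benjamini-Hochberg adjustment over all introns or genes tested. No explanation of these differences was tested. For retention (quasi-binomial test), the adjusted p was 2.5e-14 for the RPL13 intron, higher in KO-2, 2.6e-12 for the RPL12 intron, lower in KO-3, and 1.3e-12 for the RPLP0 intron, higher in KO-1 than in KO-2 or KO-3. It was 1.5e-09 for the long RPL10 intron with SNORA70, 9.5e-05 for RPL30, 7.9e-05 for RPL41, 3.1e-05 for RPL18 and 0.00027 for the RPL4 intron with SNORD16. It was 3e-04 for RPL17, 0.0012 for RPL8, 0.014 for RPL14 and 0.047 for RPL36.

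For spliced reads (limma F test), the adjusted p was 1.9e-11 for RPL12, 4.7e-11 for RPL14, 4.3e-09 for RPL10A, 1.6e-08 for RPL5, 2.7e-08 for RPL11 and 5.5e-08 for RPL22. It was 9.2e-08 for RPLP0, 1.9e-07 for RPL3, 7e-07 for RPLP2, 1.2e-06 for RPL28, 4.5e-06 for RPL38 and 3.4e-05 for RPLP1. In each of these 12 genes KO-3 was above KO-4 in every library, as in 46 of 46 members.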

How the results depend on the processing

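No named gene or intron that passed changed direction under any alternative run. Counts of member introns with changed retention (8, 9, 3 and 4 in KO-1 to KO-4) became 0 in each clone with limma on the log2 odds. In KO-1 they became 3 with at least 50 reads of each kind, 5 when centred on the median intron, 4 at an adjusted p under 0.01 and 5 in the authors' deposited table, and in KO-2 3 in the authors' deposited table. Without the filter on low counts they became 8 in KO-3 and 8 in KO-4. Leaving out 1 library gave 3 to 14 in KO-1, 7 to 14 in KO-2, 2 to 5 in KO-3 and 1 to 13 in KO-4. Member introns that differed among clones numbered 46, 22 at an adjusted p under 0.01, and 32 to 45 with 1 library left out.

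Counts of member genes (9, 2, 43 and 44) became 4 in KO-1 and 1 in KO-2 at an adjusted p under 0.01. Leaving out 1 library gave 4 to 14, 1 to 8, 28 to 46 and 41 to 44. Scaling to total spliced reads, voom weights and quasi-Poisson, chosen after seeing the data, kept each count within 1.5 times; total scaling gave 32 in KO-3 and moved the median of all genes by at most 0.07 on the log2 scale. In KO-3 all 46 members stayed above 0 and in KO-4 all 46 below under each setting run. For genes named, 402 of 432 alternative values stayed past the threshold and 30 did not; for introns named, 193 of 286 did and 93 did not. The cause of these moves was not tested.

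The planned edgeR and DESeq2 alternatives were not run. No paired analysis was possible because the lists in the tables carry no replicate numbers. Depth sets which introns were tested: those of the family with fewer than 10 retained reads on average were not tested, and retention near 0.04% rests on few reads.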

Other observations

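The genes whose gap between KO-3 and KO-4 was smallest were RPL10, at 0.39 on the log2 scale, RPL28 at 0.42, RPL36 at 0.46, RPL38 at 0.48 and RPLP1 at 0.49. RPL12 had the widest gap, 0.97.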
